A study of Mus musculus with 4 samples.

Results

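Elastic fibre and provisional matrix genes were followed in the inferior vena cava of mice after venous ligation or sham surgery. They were chosen as a list of 10 genes by name: Eln, Fbn1, Fbln1, Fbln2, Fbln5, Lox, Loxl2, Tnc, Postn and Fn1. Each was read from probe sets annotated with that symbol alone, taking the brightest where a gene had several. In all, 9 of the 10 genes had such a probe set, among 18820 genes measured in this way, and no value is given here for Fbn1. All 9 passed the filter on low values, which kept 14115 genes.

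RNA was hybridised to 1 whole-transcript Affymetrix array per group, and each array held RNA pooled from 4 mice. The groups were Cd39-/- veins ligated below the kidneys for 48 h, wild-type veins ligated for 48 h, Cd39-/- veins after sham surgery, and wild-type veins after sham surgery, in which the vein was dissected but not tied. Mice of both genotypes were 8 to 10 weeks old, of either sex, and backcrossed for at least 8 generations to C57BL/6J. CD39, encoded by Entpd1, degrades extracellular ATP and ADP, and the labels name no tissue-restricted deletion. Pooling hides the spread between mice, the labels allow complete or partial ligation, and they do not say whether thrombus was included in the RNA.

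Elastic fibres let large vessels stretch and recoil. Elastin, the product of Eln, is laid onto microfibrils of fibrillin-1 (Fbn1), fibulins guide the assembly, and lysyl oxidases cross-link elastin and collagen. Provisional matrix is the temporary scaffold of injured tissue, in which fibronectin (Fn1), tenascin-C (Tnc) and periostin (Postn) support the attachment and migration of cells. Smooth muscle cells and fibroblasts are the main sources of these proteins in a vein wall.

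Since each group is 1 array, a difference of arrays is given in log2 with no p-value, and a gene was counted as apart at 2-fold or more. Precision is limited by the number of arrays. Entpd1 went against the genotype label on 1 array. Its log2 level was 6.14 on the ligated array labelled Cd39-null, 6.17 in ligated wild-type veins, 4.16 in Cd39-null sham veins and 7.11 in wild-type sham veins. Whether its probe set covers the deleted exons is not stated in the labels, and every direction drawn from that array rests on its label. Background was taken as the 95th percentile of 1006 olfactory receptor probe sets, which lay between 2.66 and 2.97 log2 on the 4 arrays, and every one of the 9 genes was above it on all 4. None of 10 endothelial markers was at or under background on any array, and 1 of 10 smooth muscle markers was, on the ligated array labelled Cd39-null.

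**Figure D1:**
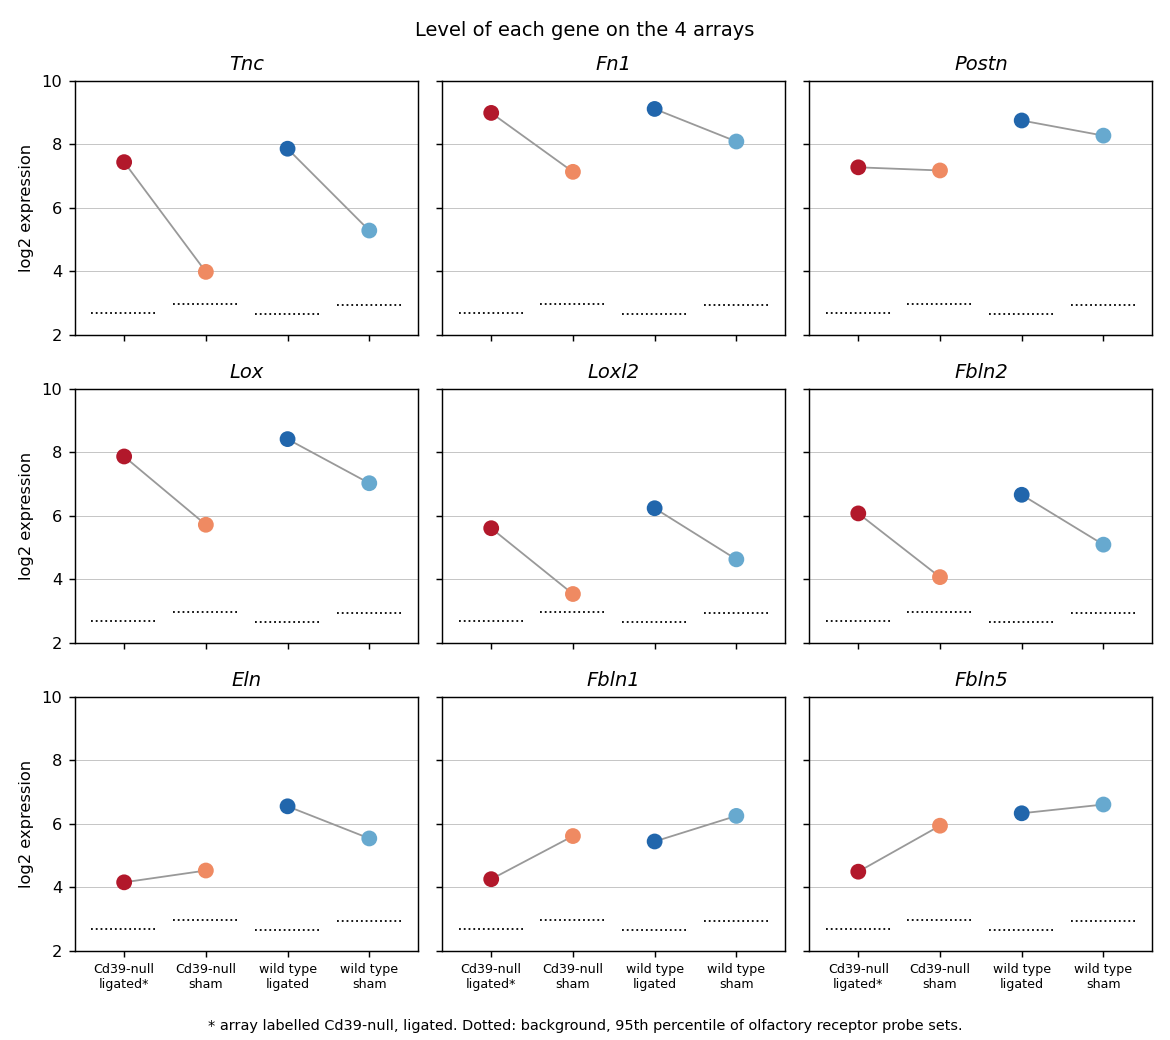
Log2 expression of the 9 genes on the 4 arrays, 1 point per array of 4 pooled mice, with grey lines joining ligated and sham of a genotype and dotted lines for the olfactory receptor background. Tnc, Fn1, Lox, Loxl2 and Fbln2 were higher on both ligated arrays than on either sham array, and Fbln1 and Fbln5 had their lowest level on the ligated array labelled Cd39-null.

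Promoters of members with different patterns are printed first, as RefSeq gives them on GRCm38.p6, each from 250 bases before to 50 after an annotated start site and on the gene's own strand. Tnc and Fbln2 were at least 2-fold higher after ligation in both genotypes, Fbln1 and Fbln5 at least 2-fold lower after it in the knockout, and Postn less than 2-fold apart in each genotype. Sequences of 5 measured members were in the table used here. For Tnc, Postn, Fbln1 and Fbln5 the table had another start site as well, and the window shown was chosen with its motif matches known. Capitals mark TATAAA, a core promoter word marked at any distance from the start site. They also mark CAGACA, a SMAD-binding word, or its reverse complement TGTCTG.
Tnc (chr4:64046887-64047186, minus strand): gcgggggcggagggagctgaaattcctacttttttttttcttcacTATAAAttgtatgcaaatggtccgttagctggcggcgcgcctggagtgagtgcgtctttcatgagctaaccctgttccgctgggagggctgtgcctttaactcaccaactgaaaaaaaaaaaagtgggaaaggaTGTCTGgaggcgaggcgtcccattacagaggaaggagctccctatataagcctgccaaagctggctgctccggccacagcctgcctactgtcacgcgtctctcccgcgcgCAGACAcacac
Fbln2 (chr6:91212514-91212813, plus strand): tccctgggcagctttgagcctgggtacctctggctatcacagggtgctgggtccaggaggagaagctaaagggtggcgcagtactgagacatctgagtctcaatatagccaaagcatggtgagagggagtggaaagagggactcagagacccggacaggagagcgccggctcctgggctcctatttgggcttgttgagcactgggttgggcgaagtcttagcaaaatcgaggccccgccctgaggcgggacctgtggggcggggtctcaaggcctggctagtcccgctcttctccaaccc
Postn (chr3:54360857-54361156, plus strand): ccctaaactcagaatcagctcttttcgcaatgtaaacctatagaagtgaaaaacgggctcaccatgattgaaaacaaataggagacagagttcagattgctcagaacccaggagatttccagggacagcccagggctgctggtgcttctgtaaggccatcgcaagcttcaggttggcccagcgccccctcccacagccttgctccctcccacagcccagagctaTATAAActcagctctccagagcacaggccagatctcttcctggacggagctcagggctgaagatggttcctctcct
Fbln1 (chr15:85205699-85205998, plus strand): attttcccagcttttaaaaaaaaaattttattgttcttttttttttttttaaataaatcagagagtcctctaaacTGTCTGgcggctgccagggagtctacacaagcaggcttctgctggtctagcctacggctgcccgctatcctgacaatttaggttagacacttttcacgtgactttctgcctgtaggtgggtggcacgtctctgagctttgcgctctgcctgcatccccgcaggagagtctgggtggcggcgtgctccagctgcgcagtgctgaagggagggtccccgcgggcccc
Fbln5 (chr12:101818435-101818734, minus strand): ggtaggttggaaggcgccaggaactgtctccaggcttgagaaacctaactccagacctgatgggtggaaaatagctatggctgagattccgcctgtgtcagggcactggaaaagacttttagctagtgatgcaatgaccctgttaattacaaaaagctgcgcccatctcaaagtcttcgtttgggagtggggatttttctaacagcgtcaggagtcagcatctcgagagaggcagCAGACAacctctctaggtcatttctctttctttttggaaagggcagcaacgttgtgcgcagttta

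A total of 5 motifs were searched on both strands: TATAAA, the SMAD word CAGACA, the AP-1 word TGANTCA, the TEAD word GGAATG and the CArG box bound by serum response factor. TATAAA began 26 bases before the start site in the Postn window and 205 bases before it in the Tnc window. Only the exact word was searched, and the similar stretch tatataag, nearer the start site in the Tnc window, is not marked. CAGACA was found in the Tnc window on both strands, in the Fbln5 window 15 bases before the start site, and in the Fbln1 window on the opposite strand. The Fbln2 window held none of the 5 motifs, and the AP-1 and TEAD words and the CArG box were in none of the 5 windows shown. Among all 32851 promoter windows of the same length, 13.6% held TATAAA, 21.0% CAGACA, 7.8% TGANTCA, 14.7% GGAATG and 1.6% a CArG box. TGANTCA and the CArG box read alike on both strands, and TATAAA can overlap a CArG box. The Postn and Fbln5 windows at the start sites not shown held none of the 5 motifs. That of Fbln1 overlaps the one shown and holds the same match, and that of Tnc has TATAAA 126 bases before its start site and CAGACA on the opposite strand. These matches describe letters only.

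The first question was how 48 h of ligation altered these genes, asked in each genotype against its own sham array. Of the 9 genes, 5 were at least 2-fold higher after ligation in both genotypes: Tnc, Fbln2, Lox, Loxl2 and Fn1. That combination held for 3.63% of the 14115 genes. Fbln1 and Fbln5 were at least 2-fold lower after ligation in the knockout and less than 2-fold apart in wild type. Postn was less than 2-fold apart in each genotype, and Eln was at least 2-fold higher in wild type and less than 2-fold apart in the knockout. The knockout and wild-type ligation comparisons have no array in common. The list was chosen with results of these data known, so its counts stand as descriptions beside the share over all genes. In bulk tissue fewer cells of a type and less RNA per cell cannot be told apart.

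In the knockout, 5 of 9 genes were at least 2-fold higher on the ligated array labelled Cd39-null than on its sham array, against 10.9% of all genes. Another 2, Fbln1 and Fbln5, were at least 2-fold lower, against 5.8% of all genes. In wild type, 6 of 9 were at least 2-fold higher after ligation, against 6.6% of all genes, and 0 were at least 2-fold lower, against 3.63%. No member was at least 2-fold lower in both genotypes, against 1.45% of all genes. The median log2 difference of the 9 genes was 1.86 in the knockout and 1.03 in wild type, beside medians over all genes of 0.03 and -0.01. With the probe sets of each gene averaged, the knockout median was 1.10. The split of all genes depended on the scaling. Of all genes at least 2-fold apart in the knockout, 65.3% were higher, but 51.4% after quantile normalisation and 53.9% after cyclic loess. Of genes that were apart the same way in both, 71.5% were higher, against 55.8% and 60.3% after those scalings.

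Tenascin-C, a matrix glycoprotein that is scarce in resting adult vessels and appears at sites of injury, had the largest ligation difference of the 9 genes. Tnc had 7.44 log2 on the ligated array labelled Cd39-null, 3.98 in Cd39-null sham veins, 7.86 in ligated wild-type veins and 5.28 in wild-type sham veins. The ligated arrays were thus close to each other and both far above the sham arrays. Its ligation difference of 3.46 in the knockout ranked 47th from the highest of 14115 genes, and that of 2.58 in wild type ranked 32nd. In linear terms Tnc was 11.0-fold higher in the knockout and 5.98-fold in wild type.

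Fibronectin, which carries the cell-binding site recognised by integrin alpha5 beta1, was also higher after ligation in both genotypes. Fn1 had 8.99 log2 on the ligated array labelled Cd39-null, 7.13 in Cd39-null sham veins, 9.12 in ligated wild-type veins and 8.09 in wild-type sham veins. The ligated arrays differed by 0.13 log2, less than the sham arrays did. Fn1 was higher after ligation by 1.86 log2 in the knockout and by 1.03 in wild type, the last of which was 0.95 after quantile normalisation and 0.99 after cyclic loess, just under 2-fold.

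Periostin, a collagen-binding matricellular protein, did not follow them. Postn had 7.28 log2 on the ligated array labelled Cd39-null, 7.18 in Cd39-null sham veins, 8.76 in ligated wild-type veins and 8.28 in wild-type sham veins. The wild-type arrays were both above the knockout arrays, whatever the surgery. Its ligation difference was 0.10 in the knockout, which became -0.11 after quantile normalisation and -0.05 after cyclic loess, and 0.48 in wild type.

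Both cross-linking enzymes were higher after ligation. Lox, the prototype lysyl oxidase, had 7.87 log2 on the ligated array labelled Cd39-null, 5.72 in Cd39-null sham veins, 8.42 in ligated wild-type veins and 7.03 in wild-type sham veins. Each ligated array was above both sham arrays. The ligation differences of 2.15 in the knockout and 1.39 in wild type correspond to 4.45-fold and 2.62-fold. Loxl2, a lysyl oxidase relative that also acts on type IV collagen of basement membranes, had 5.61 log2 on the ligated array labelled Cd39-null, 3.53 in Cd39-null sham veins, 6.24 in ligated wild-type veins and 4.63 in wild-type sham veins. The order of the arrays was that of Lox, with differences of 2.08 in the knockout and 1.61 in wild type. A dimmer Loxl2 probe set lay between 2.41 and 2.71 log2 on all 4 arrays, under the background on each, and averaging both gave ligation differences of 1.10 in the knockout and 0.72 in wild type. The averaged genotype difference in sham veins was -0.70, against -1.09 for the brighter probe set, and neither it nor the wild-type ligation difference was then 2-fold.

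The 3 fibulins, which connect elastic fibres, microfibrils and basement membranes, differed in direction. Fbln2 had 6.07 log2 on the ligated array labelled Cd39-null, 4.07 in Cd39-null sham veins, 6.66 in ligated wild-type veins and 5.09 in wild-type sham veins. It was higher after ligation in both genotypes, by 2.01 in the knockout and 1.57 in wild type. Fbln1 had 4.25 log2 on the ligated array labelled Cd39-null, 5.61 in Cd39-null sham veins, 5.44 in ligated wild-type veins and 6.25 in wild-type sham veins. Its ligation difference was -1.36 in the knockout and -0.81, less than 2-fold, in wild type. Fbln5, which tethers elastin to microfibrils and to integrins, had 4.49 log2 on the ligated array labelled Cd39-null, 5.94 in Cd39-null sham veins, 6.33 in ligated wild-type veins and 6.61 in wild-type sham veins. The ligated array labelled Cd39-null lay below the other arrays, with ligation differences of -1.45 in the knockout and -0.28, less than 2-fold, in wild type.

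Elastin itself had ligation differences of opposite sign. Eln had 4.15 log2 on the ligated array labelled Cd39-null, 4.52 in Cd39-null sham veins, 6.55 in ligated wild-type veins and 5.54 in wild-type sham veins. The ligated wild-type array was the highest and the ligated array labelled Cd39-null was the lowest. Its ligation difference was -0.37 in the knockout and 1.01 in wild type, the last being 0.88 after quantile normalisation and 0.91 after cyclic loess. The difference between these differences was -1.39 and could not be tested, because a model with that term leaves no residual degrees of freedom.

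**Figure D2:**
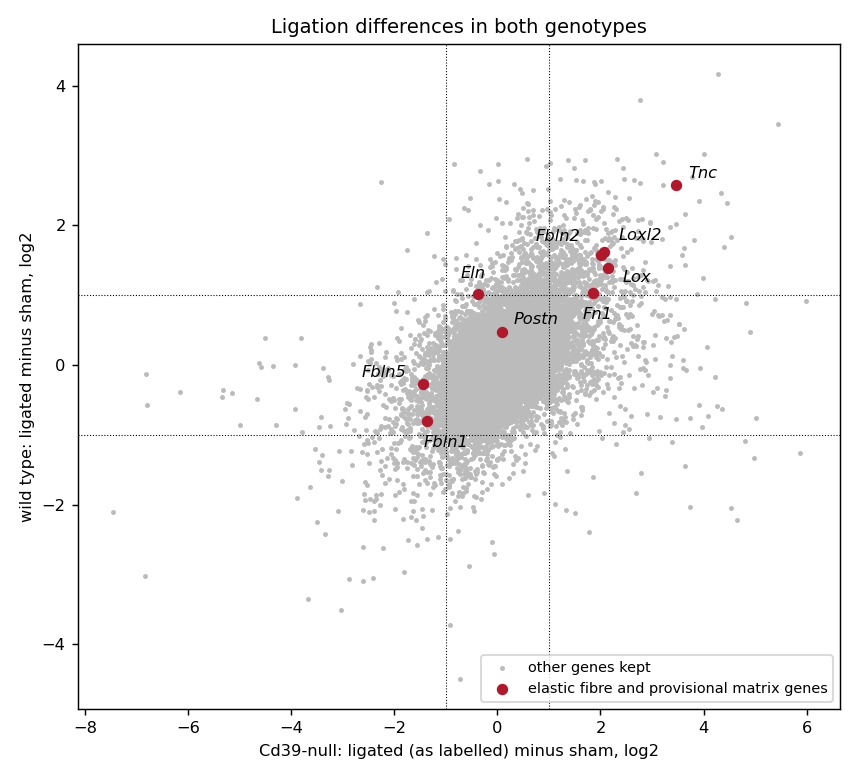
Log2 ligation difference of each gene in the knockout (x axis) and in wild type (y axis) over 14115 genes, with 2-fold limits dotted. Tnc, Fbln2, Lox, Loxl2 and Fn1 lie in the upper right corner, at 1.86 to 3.46 in the knockout and 1.03 to 2.58 in wild type, and Fbln1 and Fbln5 lie at -1.36 and -1.45 in the knockout and at -0.81 and -0.28 in wild type.

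The Cd39-null sham array, the base of the knockout comparison, lay below the wild-type sham array for all 9 genes. With the wild-type sham array as the base instead, Tnc was 2.16 log2 higher on the ligated array labelled Cd39-null, and was the only member at least 2-fold higher. Lox, Fn1, Loxl2 and Fbln2 were then 0.84, 0.90, 0.98 and 0.99 higher. On that base Eln was at -1.38 and Fbln5 at -2.12, and Postn was just under 2-fold lower. The share of all genes on that base is not given here.

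Across all 4 arrays, an additive model of genotype and ligation was fitted with limma to all 14115 genes, with 1 residual degree of freedom. Adjusted by Benjamini-Hochberg over all genes, 0 genes (0%) passed an adjusted p of 0.05 for the ligation term. At an unadjusted p under 0.05, 5 of 9 members were higher, against 13.2% of all genes, and 1 of 9, Fbln1, was lower, against 7.79%. In the limma fit Tnc had a mean ligation difference of 3.02 ± 0.30 (SE) with an adjusted p of 0.0952, the smallest that any gene reached and shared with other genes. Loxl2 had 1.84 ± 0.25 and Fbln2 1.79 ± 0.24 at the same adjusted p from limma. Lox followed with 1.77 ± 0.28 and an adjusted p of 0.0959 in limma, then Fn1 with 1.44 ± 0.29 and 0.116. Fbln1 had -1.08 ± 0.26 and Fbln5 -0.86 ± 0.35, with adjusted p from limma of 0.133 and 0.257. Postn (0.29 ± 0.24) and Eln (0.32 ± 0.39) had differences close to their standard errors.

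Over the 4 arrays Lox, Loxl2 and Fbln2 had nearly the same pattern. Likeness was measured as the root mean square distance between log2 values centred on each gene's own mean, against 13298 other named genes. The gene nearest to Loxl2 was Fbln2, at a distance of 0.04 log2, followed by Lox at 0.09 and the collagen prolyl hydroxylase P3h1 at 0.10. The nearest to Lox were Loxl2 at 0.09, Fbln2 at 0.10 and the type III collagen gene Col3a1 at 0.10. Tnc, with the widest range of the members, was nearest to the complement receptor C5ar1 at 0.33, the heme oxygenase Hmox1 at 0.43 and the retinoic acid binding protein Crabp1 at 0.44. Only 4 arrays enter each distance, so it describes these arrays.

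The second question was whether the genes differed between genotypes. All 9 were lower in Cd39-null than in wild-type sham veins, which held for 56.7% of all genes, and all 9 were lower on the ligated array labelled Cd39-null than on the wild-type one, which held for 54.2%. Lower in both surgeries were all 9, against 32.6% of all genes. These comparisons share no array with each other, but each shares arrays with the ligation comparisons above.

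In sham veins 6 of 9 genes were at least 2-fold lower in Cd39-null, against 3.54% of all genes, and 0 were at least 2-fold higher, against 2.95%. After cyclic loess 3 of 9 were at least 2-fold lower, beside 353 of all 14115 genes, against 499 as deposited. The split of all genes moved too, with 45.5% of genes at least 2-fold apart being higher in Cd39-null as deposited and 58.4% after cyclic loess. The differences of the 9 genes lay in a narrow band from -1.31 to -0.64 log2, with a median of -1.02 beside -0.07 for all genes. Lox (-1.31) and Tnc (-1.30) were the lowest, ranking 156th and 160th from the lowest of 14115, while Fbln5 (-0.67) and Fbln1 (-0.64) were nearest to wild type.

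In ligated veins the differences were spread more widely, from -2.40 to -0.13. Here 4 of 9 genes were at least 2-fold lower on the ligated array labelled Cd39-null, against 2.66% of all genes, and 0 were at least 2-fold higher, against 3.61%. Eln was lowest at -2.40, a 5.27-fold difference that ranked 13th from the lowest of 14115 genes. Fbln5 (-1.84), Postn (-1.48) and Fbln1 (-1.19) followed. The 5 genes that were higher after ligation in both genotypes lay between -0.63 and -0.13, with Loxl2 at -0.63, Fbln2 at -0.59, Lox at -0.55, Tnc at -0.42 and Fn1 at -0.13. The median of the 9 was -0.63, beside -0.03 for all genes.

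In the limma fit the genotype term passed an adjusted p of 0.05 for 0 genes (0%). At an unadjusted p under 0.05, 8 of 9 members were lower in Cd39-null, against 4.65% of all genes. In a model without the ligation term only 2 of 9 were, and the share of all genes in that model is not given here. The mean genotype difference was largest for Eln, at -1.70 ± 0.39 (SE, limma), and ranked 18th from the lowest of 14115 genes. Postn had -1.29 ± 0.24 and Fbln5 -1.26 ± 0.35, and the smallest was that of Fn1, -0.54 ± 0.29. The adjusted p from limma lay between 0.667 and 0.761 for all 9 genes.

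**Figure D3:**
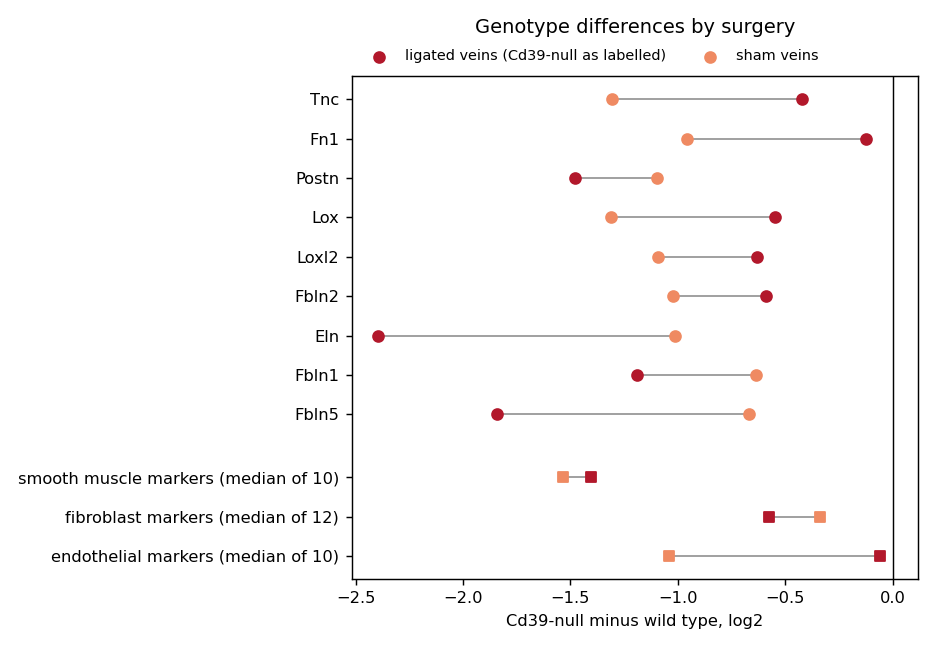
Log2 difference of Cd39-null from wild type in ligated and in sham veins for the 9 genes (circles) and the median difference of 3 marker lists (squares). All 9 genes lie below 0 in both surgeries, and smooth muscle markers lie at -1.40 in ligated and -1.53 in sham veins.

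Most smooth muscle markers were lower in Cd39-null too, and fewer of the fibroblast markers were. Of 10 smooth muscle markers, 8 were at least 2-fold lower on the ligated array labelled Cd39-null than on the wild-type one, with a median of -1.40 log2. In sham veins 9 were at least 2-fold lower in Cd39-null, with a median of -1.53. The median level of these markers was 5.54 log2 on the ligated array labelled Cd39-null, 5.57 in Cd39-null sham veins, 7.01 in ligated wild-type veins and 7.27 in wild-type sham veins, and their summed linear levels were 692, 1067, 1898 and 2620 in that order. Smooth muscle myosin Myh11 had genotype differences of -2.35 in ligated and -1.68 in sham veins. Of 12 fibroblast markers, 4 and 1 were at least 2-fold lower in Cd39-null in ligated and sham veins, with medians of -0.58 and -0.34.

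Other cell types differed between the genotypes as well. On the ligated array labelled Cd39-null, platelet markers had a median difference of 4.08 from the wild-type one, with 5 of 6 at least 2-fold higher, and neutrophil markers one of 1.76, with 7 of 9 higher. Medians there were -0.06 for endothelial and -0.30 for adipocyte markers. In sham veins platelet markers had a median of -1.20 with 3 of 6 at least 2-fold lower, and neutrophil markers 1.07 with 5 of 9 higher. Adipocyte markers had a median difference of 1.08 between Cd39-null and wild-type sham veins, with 7 of 10 at least 2-fold higher, among them the brown fat gene Ucp1 (9.71 log2 in Cd39-null and 4.14 in wild type). For B and T cells, 5 of 7 markers were at least 2-fold higher and the median was 1.99, while the endothelial median was -1.04 with 5 of 10 at least 2-fold lower. Of the 7 B and T cell markers, 3 were at or under background in wild-type sham veins. The part of these cell types in the genotype differences of the matrix genes was not tested.

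Marker lists of several cell types differed with ligation. Monocyte and macrophage markers were at least 2-fold higher for 8 of 10 in the knockout and 10 of 10 in wild type, with medians of 1.76 and 2.28 log2. Fibroblast markers had medians of -0.08 and 0.07, and 3 of 12 and 4 of 12 were at least 2-fold higher, and 2 and 1 lower. The collagen genes Col3a1 (2.17 and 1.51), Col1a1 (1.23 and 2.27) and Col1a2 (1.29 and 1.93) were higher in both, and Clec3b (-1.21 and -1.15), which encodes the plasminogen-binding protein tetranectin, was lower in both. Smooth muscle markers had medians of -0.55 and -0.44, with 4 of 10 and 3 of 10 at least 2-fold lower, and 1 and 0 higher. Myh11, among those lower, was at -2.24 and -1.57. Platelet markers had a median of 3.98 in the knockout, with 6 of 6 at least 2-fold higher, and -1.26 in wild type, with 4 of 6 lower. Endothelial markers had medians of 0.19 and -1.35, with 1 of 10 lower in the knockout and 7 of 10 in wild type. Adipocyte markers had medians of -1.63 and 0.06, with 7 of 10 and 1 of 10 lower, and B and T cell markers -1.30 and -0.16, with 6 of 7 and 1 of 7 lower. Of those 7, at or under background were 2 on the ligated array labelled Cd39-null, 4 in ligated wild-type veins and 3 in wild-type sham veins. The part of these cell types in the ligation differences of the matrix genes was not tested.

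Over all 14115 genes, 10.9% were at least 2-fold higher and 5.8% lower after ligation in the knockout, and 6.6% and 3.63% in wild type. Higher in both were 3.63% and lower in both 1.45%. These shares belong beside the ligation counts of the marker lists above and of the lists below. Other genes of elastic fibre assembly were read from a list of 26, of which 22 had a value. After ligation 4 were at least 2-fold higher and 1 lower in the knockout, and 7 higher and 3 lower in wild type, with medians of 0.24 log2 in each. The 3 that were higher in both were Emilin2, a glycoprotein at the surface of elastic fibres (2.22 in the knockout and 1.22 in wild type), Ltbp2, a fibrillin-binding protein (1.54 and 1.38), and Bmp1, the protease that activates lysyl oxidase (1.63 and 1.69). The microfibril gene Mfap5 had 0.94 and 1.78. Its relative Mfap2 had -0.22 and 1.22, opposite signs like those of Eln, and its genotype difference was -1.61 in ligated veins. Multimerin Mmrn1, stored in platelets and endothelial cells, had 1.79 and -2.39.

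Of the other provisional and matricellular matrix genes, 26 of 28 had a value and 21 passed the filter on low values. After ligation 10 of the 21 were at least 2-fold higher and 3 lower in the knockout, with a median of 0.85, and 6 higher and 2 lower in wild type, with a median of 0.38. The 5 that were higher in both were Vcan, Thbs2, Cthrc1, Ccn2 and Tnfaip6, and Sparcl1 and Vtn were lower in both. Versican (Vcan), a hyaluronan-binding proteoglycan, had ligation differences of 2.98 in the knockout and 1.76 in wild type, and Tnfaip6, which transfers proteins onto hyaluronan, 2.44 and 1.57. A difference from a value under background is a bound, taken here from that array's background level. Tnfaip6 was under background in wild-type sham veins and was thus at least 2.13-fold higher after ligation in wild type, and Thbs2 was under it in Cd39-null sham veins. Thrombospondin-1 (Thbs1), which platelets also release, had 4.82 and 0.89. Cthrc1, a secreted protein of injured arteries, was higher after ligation (2.17 and 1.82) and lower in Cd39-null (-1.95 in ligated and -2.30 in sham veins). Asporin (Aspn), a collagen-binding proteoglycan, was also lower in Cd39-null, with -2.37 in ligated and -1.38 in sham veins. By genotype 3 of the 21 were at least 2-fold higher and 5 lower on the ligated array labelled Cd39-null, and 1 higher and 4 lower in Cd39-null sham veins. Tnfaip6 (1.55) and Thbs1 (1.46) were among those higher on the ligated array, and Thbs1 was at -2.46 in sham veins. Over all genes 3.61% were at least 2-fold higher and 2.66% lower by genotype in ligated veins, and 2.95% and 3.54% in sham veins. These shares also belong beside the genotype counts of the marker and TGF-beta lists.

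Of 18 receptor genes for these proteins, 17 passed the filter on low values. After ligation 10 of the 17 were at least 2-fold higher and 2 lower in the knockout, with a median of 1.08, and 3 higher and 1 lower in wild type, with a median of 0.01. The 3 in both were the fibronectin receptor chain Itga5 (2.29 in the knockout and 1.43 in wild type), the integrin chain Itgav, and the hyaluronan receptor Cd44 (2.83 and 1.36). Ptprz1, a receptor phosphatase that binds tenascins, measured -2.17 and -1.45 but was under background on both ligated arrays. Ptprz1 was thus at least 1.95-fold lower in the knockout and at least 2.03-fold lower in wild type. The platelet integrin chain Itga2b was under background in Cd39-null sham veins and was at least 12.8-fold higher after ligation in the knockout. In wild type its difference was -0.17, between levels just above background. Itga8, a tenascin and fibronectin receptor chain of smooth muscle, was under background on the ligated array labelled Cd39-null and was at least 7.39-fold lower there than in Cd39-null sham veins, with -0.04 in wild type.

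Of 16 genes on a list of elastin and fibronectin degrading proteases, which includes the plasminogen activators Plau and Plat, 14 passed the filter on low values. They were at least 2-fold higher after ligation for 6 genes in the knockout and 7 in wild type, with medians of 0.68 and 1.16, and 0 were lower. In both genotypes these were the membrane metalloproteinase Mmp14 (2.22 in the knockout and 1.92 in wild type), Ctss, the lysosomal cysteine protease Ctsl (1.90 and 1.64), the urokinase gene Plau (2.42 and 2.09) and Plat. The gelatinase Mmp9, abundant in neutrophils, was under background in Cd39-null sham veins, so that it was at least 17.0-fold higher after ligation in the knockout, and its difference in wild type was 0.95.

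TGF-beta is a main inducer of elastin and lysyl oxidase synthesis. Of 10 genes of its ligands, receptors and targets 8 had a value, and of these 4 were at least 2-fold higher after ligation in the knockout and 0 in wild type, with medians of 1.40 and 0.21. These were the 4 with the largest mean ligation difference, Inhba (3.35 in the knockout and 0.72 in wild type), Tgfb1 (2.41 and 0.83), Skil (1.91 and -0.22) and Tgfbr1 (1.82 and 0.03). By genotype 2 of the 8 were at least 2-fold higher on the ligated array labelled Cd39-null, Inhba (1.91) and Skil (1.62), and 2 were lower, the ligands Tgfb3 (-2.25) and Tgfb2 (-1.16). In sham veins 0 were higher and the same 2 ligands were lower in Cd39-null, at -2.07 and -1.14.

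**Figure D4:**
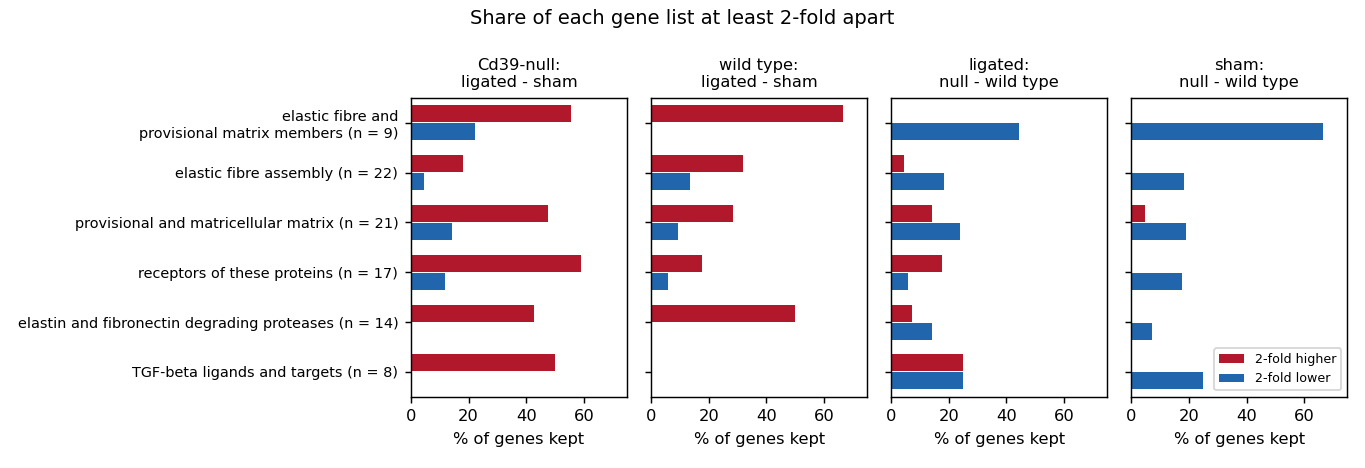
Share of each list's genes that passed the filter on low values and were at least 2-fold higher (red) or lower (blue) in each comparison, as percent of the genes kept. After ligation 5 and 6 of the 9 elastic fibre and provisional matrix genes are higher in the knockout and wild type, against 10.9% and 6.6% of all genes. Lower after ligation are 2 and 0, against 5.8% and 3.63%. In the genotype comparisons of ligated and sham veins 4 and 6 are lower, against 2.66% and 3.54%, and 0 are higher, against 3.61% and 2.95%.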

How the data were processed

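Per the submitters' processing notes, the authors used RMA from oligo, with no version given here, and deposited 1 log2 value for each probe set and array. RMA includes quantile normalisation, which would hide a global shift between groups. Of 35556 probe sets, 21218 carried 1 gene symbol in the platform annotation, 1881 several and 12457 none. For 1386 of 18820 genes with several probe sets the brightest by mean over the 4 arrays was used, and genes at or above the 25th percentile of that mean (2.29 log2) were kept. Array medians lay between 2.97 and 3.04 log2 over all probe sets.

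Differences between arrays have no test. The additive model was fitted with limma 3.58.1 (lmFit, eBayes) in R 4.3.3, with 1 residual and 3.67 prior degrees of freedom. A run on simulated data checked the code only, since it had independent normal noise and no unequal responses of the genotypes. With no replicated pools, the p-values of the model reflect the agreement of a gene's difference across the pairs of arrays. Unequal responses of the genotypes enter the error. Alternatives were quantile normalisation again, cyclic loess, averaged probe sets, a 1.5-fold threshold, no filter or the 50th percentile, the wild-type sham array as the base of the ligated array labelled Cd39-null, a trended or robust prior, and a model with 1 term.

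The members and the other 16 lists were chosen with earlier results of these data known. From each matrix, receptor, protease and TGF-beta list, at most 4 genes were named by size of the mean ligation difference and at most 2 by that of the mean genotype difference, and from marker lists up to 3 by ligation. Genes of these lists apart in both genotypes, where 5 or fewer, were named after their values were seen. For the 3 members with the widest range, the 3 nearest genes were named, leaving out predicted, RIKEN, olfactory, vomeronasal and small RNA genes.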

Additional observations from a re-analysis of the deposited data

Results flagged for a closer look

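Among the members and the genes named from the matrix, receptor, protease and TGF-beta lists, 5 had ligation differences of opposite sign in the knockout and in wild type. The difference between the genotypes was not tested for any of them, since each group was 1 array. Eln had -0.37 in the knockout and 1.01 in wild type, a difference of -1.39 log2. Mfap2 had -0.22 and 1.22, a difference of -1.44. Mmrn1 had 1.79 and -2.39, a difference of 4.18, and Itga2b 4.22 and -0.17, a measured difference of 4.39. Itga2b was under background in Cd39-null sham veins, so that its increase in the knockout is a bound of at least 12.8-fold. In wild type its levels of 2.78 log2 ligated and 2.95 sham lay just above background, at 2.66 and 2.94. The sign of its wild-type difference is therefore not secure. Skil had 1.91 and -0.22, a difference of 2.14. In all of these genes but Mmrn1 the negative difference lay between -0.37 and -0.17, less than 2-fold. How many of all genes had opposite signs was not counted, so the count of 5 cannot be read as a trait of these genes.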

How the results depend on the processing

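No alternative listed above turned the sign of a member that was at least 2-fold apart, and no limma fit gave any gene (0) an adjusted p under 0.05 for ligation or genotype; as reported, 2960 and 979 had an unadjusted p under 0.05. With a 1.5-fold threshold, 1 member (Fbln1) was lower after ligation in wild type and likewise 1 in both genotypes, against 0 at 2-fold. After cyclic loess 3 members, against 6, were at least 2-fold lower in Cd39-null than in wild-type sham veins, and of all genes 353, against 499. With the wild-type sham array as the base, 1 member, against 5, was at least 2-fold higher on the ligated array labelled Cd39-null, and 1, against 5, in both genotypes. In a limma model of genotype alone 2 members, against 8, had an unadjusted p under 0.05. The share of all genes is not given here for the 1.5-fold threshold, the wild-type sham base or the model of genotype alone. The additive model already sets ligated against sham within genotype. Beyond it no block by replicate could be fitted, since each group is 1 array and the labels give no replicate numbers. Leaving out an array was not run, since it leaves the additive model no residual degrees of freedom. Signal over background limits the dimmest lists more than the 9 genes, and for arrays no read depth applies. The dimmest member value was that of Loxl2 in Cd39-null sham veins, at 3.53 log2 against a background of 2.97.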

Other observations

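Outside the group of Lox, Loxl2 and Fbln2, some members ranked near another in pattern, but less near when ranked the other way. Postn was the 12th nearest to Eln of 13298 named genes, at a root mean square distance of 0.33 log2. Eln was only the 145th nearest to Postn. Fbln1 was the 32nd nearest to Fbln5, at 0.26, and Fbln5 the 110th nearest to Fbln1. Fn1 was the 19th nearest to Lox, at 0.26, and Lox the 120th nearest to Fn1. These distances rest on 4 arrays and describe them only.

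Mesothelial markers, a source of matrix at the outer surface of abdominal vessels, were dim, with medians of 3.68 log2 on the ligated array labelled Cd39-null, 3.23 in Cd39-null sham veins, 3.35 in ligated wild-type veins and 3.03 in wild-type sham veins. Of the 8 markers only Wt1 was at least 2-fold higher after ligation in both genotypes, by 1.25 in the knockout and 1.26 in wild type. Schwann and nerve markers had median ligation differences of -0.91 in the knockout and -1.23 in wild type over 5 genes. Cell cycle genes were at least 2-fold higher for 4 of 9 in the knockout and 9 of 9 in wild type, with medians of 0.75 and 2.29. Neutrophil markers had medians of 0.94 and 0.03 over 9 genes, with 3 at least 2-fold higher and 1 lower in the knockout and 2 higher and 0 lower in wild type. Csf3r had 4.54 and 1.83, Cxcr2 2.39 and 1.67, and Mmp8 2.08 and -0.11.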
